A study of Mus musculus with 6 samples.

Results

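Transcripts of 9 keratin genes were followed in non-wounded and wounded mouse epidermis. Krt7, Krt8, Krt18, Krt19 and Krt20 are best known from simple epithelia. Krt23, Krt75, Krt79 and Krt80 are expressed in follicles or differentiating epithelium. The members were taken by gene symbol, and all 9 were present among the 47455 symbols of the deposited tables, where 54 symbols name a keratin gene. Whole epidermis came from 3 C57BL/6 mice aged 6 to 8 weeks, and each mouse gave 1 library from non-wounded skin and 1 from wounded back skin, taken 2 h after 8 punch biopsies of 3 mm. Each group therefore held 3 libraries, 1 per mouse, with totals between 20746185 and 26814845 estimated counts. Epidermis was lifted off the dermis with trypsin, so each library mixes interfollicular epidermis with whatever part of the follicles, glands and resident immune cells came off with it. The labels give no genetic change or agent for either group and do not state when non-wounded skin was taken.

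Keratins build the intermediate filaments of epithelial cells, and a filament needs a type I chain paired with a type II chain. Krt8 (type II) and Krt18 (type I) form the pair of single-layered epithelia, where Krt7 (type II), Krt19 and Krt20 (type I) join them in ducts, in urothelium and gut, and in the Merkel cells of skin. Stratified epidermis relies mainly on other pairs. Krt75 (type II) belongs to the companion layer of the hair follicle, Krt79 (type II) to the upper follicle canal and the duct of the sebaceous gland, Krt80 (type II) to differentiating epithelial cells, as described in human tissue, and Krt23 (type I) is known from human cancer cells as a gene induced by inhibitors of histone deacetylases.

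In the mouse genome build GRCm38 (mm10), 6 members lie on chromosome 15 and 3 on chromosome 11, which hold the type II and type I keratin clusters. Krt18 is the exception, a type I gene on chromosome 15. There, 23697 bases lie between its start and the start of Krt8, with no annotated gene between them. Krt8 spans chr15:101996698-102004482 on the minus strand and Krt18 spans chr15:102028180-102032027 on the plus strand. Krt79 spans chr15:101929332-101940324 and Krt80 spans chr15:101347444-101370162, both on the minus strand. Krt75 (chr15:101563345-101573904, minus) and Krt7 (chr15:101411043-101430313, plus) complete the group on that chromosome. On chromosome 11, all on the minus strand, are Krt20 (chr11:99428403-99438150), Krt23 (chr11:99477974-99493137) and Krt19 (chr11:100140810-100148665). The spans of Krt7, Krt8, Krt75 and Krt80 overlap annotated genes on the other strand (Gm671, Gm36026, Gm44460, and both Gm35853 and Mir1941). Of these, Gm44460 had a mean of 0 and Mir1941 a mean of 2.83 counts per library. No strand setting is stated and overlap of exons was not checked, so any mixing of their reads was not tested.

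The 250 bases before the RefSeq start site (GRCm38.p6) were matched for 7 of the 9 members. Those of 4 members are shown, the scarce Krt7, Krt8 and Krt18 and the abundant Krt79, which hold the highest and lowest numbers of CpG dinucleotides among the 7. Each is written 5′ to 3′ on the strand of the gene, and capitals mark CpG dinucleotides. The windows are chr15:101412153-101412402 (plus), chr15:102004343-102004592 (minus), chr15:102027966-102028215 (plus) and chr15:101940325-101940574 (minus). Set against the gene spans given above, the Krt7 window lies inside the gene. Those of Krt8 and Krt18 overlap the first bases of their genes, and that of Krt79 ends where its gene begins.
Krt7: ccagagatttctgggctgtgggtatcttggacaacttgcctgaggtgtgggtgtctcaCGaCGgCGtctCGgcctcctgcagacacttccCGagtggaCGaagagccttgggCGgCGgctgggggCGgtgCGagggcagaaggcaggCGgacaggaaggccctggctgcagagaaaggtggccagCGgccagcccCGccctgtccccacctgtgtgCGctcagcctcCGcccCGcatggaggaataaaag
Krt8: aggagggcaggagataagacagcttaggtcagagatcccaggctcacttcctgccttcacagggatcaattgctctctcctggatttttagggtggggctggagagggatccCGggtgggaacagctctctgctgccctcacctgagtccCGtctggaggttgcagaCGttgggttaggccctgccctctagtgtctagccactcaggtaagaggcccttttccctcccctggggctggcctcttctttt
Krt18: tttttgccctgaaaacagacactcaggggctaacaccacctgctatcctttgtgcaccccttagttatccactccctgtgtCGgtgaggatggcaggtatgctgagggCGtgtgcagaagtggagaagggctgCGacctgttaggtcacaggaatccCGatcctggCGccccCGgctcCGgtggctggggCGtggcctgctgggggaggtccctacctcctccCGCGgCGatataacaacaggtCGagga
Krt79: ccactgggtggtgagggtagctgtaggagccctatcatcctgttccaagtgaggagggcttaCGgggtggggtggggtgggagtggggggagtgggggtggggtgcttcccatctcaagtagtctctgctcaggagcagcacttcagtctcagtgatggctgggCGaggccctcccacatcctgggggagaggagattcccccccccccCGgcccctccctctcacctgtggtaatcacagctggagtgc
The Krt7 window holds 16 CpG and that of Krt18 holds 12, while those of Krt8 and Krt79 hold 3 each. Of the windows not shown, those of Krt20 and Krt23 hold 5 each and that of Krt75 holds 4. The median over all 32851 such windows is 6. Of 3 motifs searched on both strands, the GC box GGGCGG was found at 4 places in the Krt7 window and at 1 in that of Krt75 (32.7% of all windows hold it). The TATA box TATAAA was found at 1 place in the Krt20 window (12.4% of all windows). The AP-1 motif TGANTCA was found in none of the 7 windows, and in 6.75% of all windows.

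The 9 transcripts fell into 2 tiers that stood far apart. Levels between genes are given in TPM (the authors' transcript abundance, scaled by transcript length and to a fixed library total). In non-wounded epidermis Krt80 stood at 690 ± 94.8 TPM (mean ± SD, n = 3), Krt79 at 615 ± 118 TPM and Krt23 at 414 ± 29.1 TPM. Krt75 followed at 56.9 ± 23.4 TPM. The simple-epithelial keratins made up the lower tier, led by Krt7 at 2.01 ± 0.821 TPM, with Krt20 at 0.264 ± 0.131, Krt18 at 0.221 ± 0.123, Krt19 at 0.142 ± 0.0945 and Krt8 at 0.0737 ± 0.0647 TPM. The ranges of Krt80 and Krt79 overlapped, as did those of each pair of neighbours from Krt20 down to Krt8, so no order within these runs is given. After wounding the tiers were the same, with Krt79 at 656 ± 69.3 TPM, Krt80 at 601 ± 88.7, Krt23 at 407 ± 38.6 and Krt75 at 43.0 ± 18.3 TPM. Krt79 and Krt80 again overlapped, and so did each pair of neighbours in the lower tier, from Krt7 at 0.742 ± 0.157 TPM down to Krt20 at 0.218 ± 0.0854 TPM. The 5 simple-epithelial keratins together reached between 1.90 and 3.81 TPM in non-wounded and between 2.27 and 3.11 TPM in wounded libraries.

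**Figure D1:**
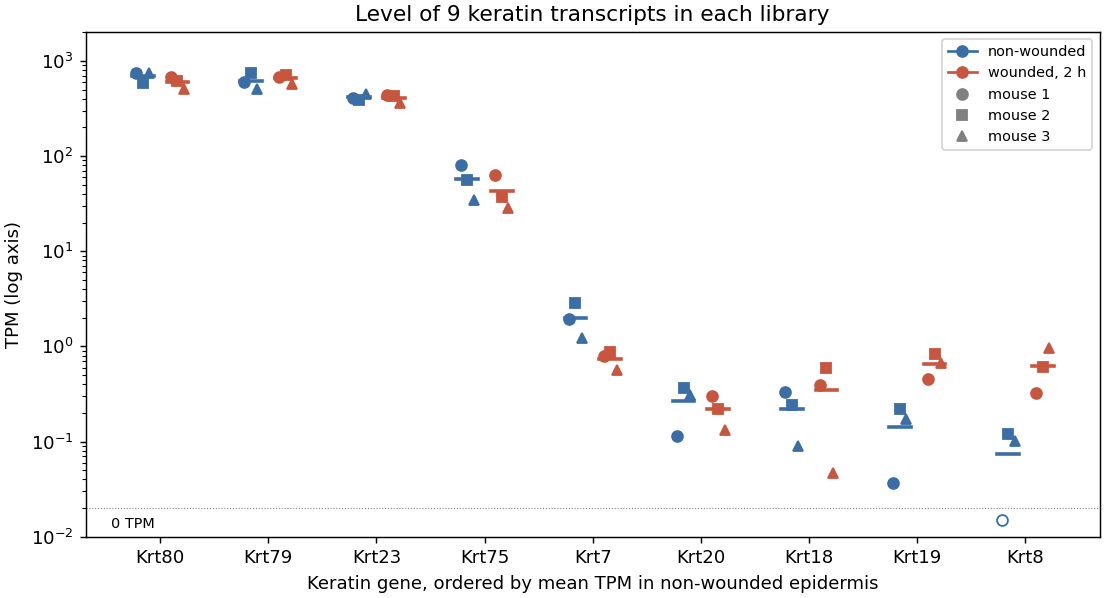
TPM (log axis) of the 9 keratin transcripts in the 3 non-wounded (blue) and 3 wounded (red) libraries, with 1 symbol per mouse and a bar at the group mean. The open symbol is the non-wounded library of mouse 1, where Krt8 was listed at 0. Krt80, Krt79 and Krt23 lie above 300 TPM in every library, and all 5 simple-epithelial keratins lie below 3 TPM.

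Wounding changed the members unevenly. Krt8 rose about 10.1-fold from a handful of counts, Krt79 and Krt23 rose by 1.36- and 1.25-fold, and none passed the test as lower. In the comparison of wounded with non-wounded libraries, 7 of the 9 members had enough counts for edgeR's quasi-likelihood test and 3 of these passed an adjusted p of 0.05, while 48.4% of the 16079 genes tested were called, 24% as higher and 24.4% as lower. A share of 3 in 7 is near that background. Krt8 had enough counts only in the wounded libraries, so it entered the test through the group where it is high. The median log2 fold change (wounded over non-wounded) of the 7 was 0.15, and that of all genes tested was -0.03. For Krt79 and Krt23 the call depended on the scaling. TMM, the scaling used here, assumes that most genes do not change, and with library totals alone, which lowers log2 fold changes by 0.32 over all genes (median), 1 member was called higher (Krt8) and 1 lower (Krt7), against 54.9% of all genes, 13.5% higher and 41.4% lower. Adding a term for the mouse to the TMM fit left the calls on the members as they were, against 53.3% of all genes. In whole-tissue RNA, a change in the number of cells that carry a transcript and a change in its amount per cell cannot be told apart.

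**Figure D2:**
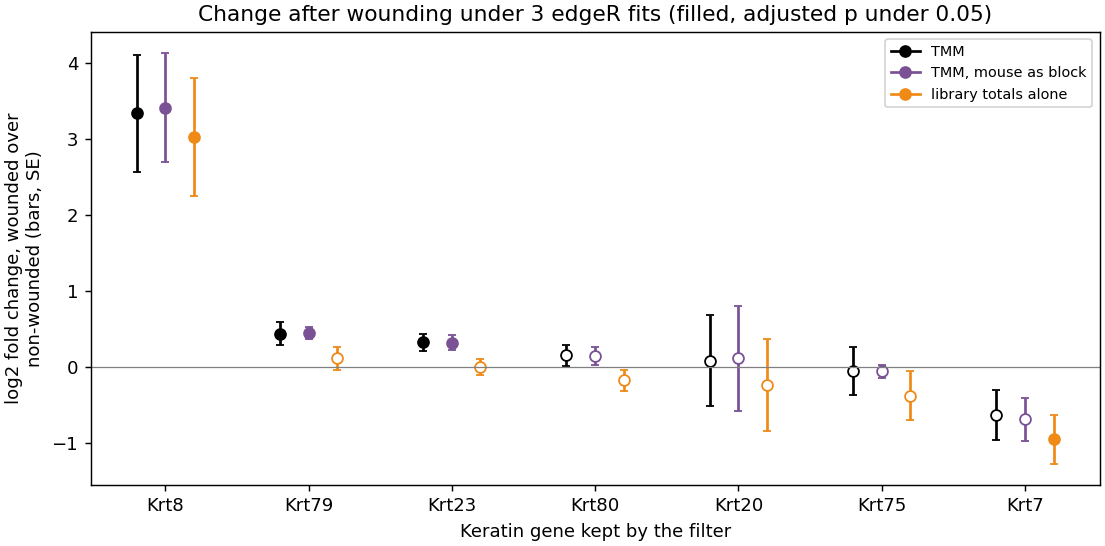
Log2 fold change (wounded over non-wounded) with its SE for the 7 members kept by the filter, from edgeR with TMM, with TMM and the mouse as a block, and with library totals alone. Filled symbols have an adjusted p under 0.05. Krt8 is high and filled in all 3 fits, Krt79 and Krt23 are filled only with TMM, and Krt7 is filled only with library totals alone.

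Among the simple-epithelial chains, Krt8 had 0, 4 and 3 counts in the non-wounded and 11, 23 and 27 counts in the wounded libraries of mice 1, 2 and 3. Every wounded library was above every non-wounded one, as it was for 58.5% of all genes tested in 1 direction or the other. In CPM (counts scaled to library size times the TMM factor), Krt8 went from 0.0919 ± 0.0809 to 0.980 ± 0.470, with a log2 fold change of 3.34 (SE 0.77, adjusted p = 0.00501 by edgeR). The ratio of the pooled counts, 61 against 7, was 10.5, with an exact 95% counting interval of 4.82 to 27.3 that leaves out the spread between mice. The call held under all 14 alternatives that gave a value (adjusted p between 0.000247 and 0.0474). When 1 library was left out, the log2 value lay between 2.76 and 3.90. Krt8 remained scarce after wounding, at 0.627 ± 0.315 TPM, below 1 TPM in each library. The pseudogene Krt8-ps held 1 count over all 6 libraries.

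Krt18, the usual partner of Krt8, did not show the same pattern. It had 8, 6 and 2 counts in the non-wounded and 10, 17 and 1 counts in the wounded libraries of mice 1, 2 and 3. The groups overlapped, and in mouse 3, where Krt8 was highest after wounding, the wounded library held the lowest Krt18 count of all 6. Krt18 fell short of the filter on low counts. In a fit without the filter its log2 fold change was 1.00 (SE 0.85, adjusted p = 0.442 by edgeR). The ratio of Krt8 to Krt18 in TPM was 0, 0.499 and 1.12 in the non-wounded and 0.822, 1.01 and 20.2 in the wounded libraries of mice 1, 2 and 3. The last of these rests on 1 count of Krt18.

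Krt19, a type I chain without the usual tail domain, was also below the filter. It had 1, 2 and 3 counts in the non-wounded and 6, 9 and 5 counts in the wounded libraries of mice 1, 2 and 3, so all 3 wounded libraries were higher. The pooled ratio was 4.03 (exact 95% counting interval 1.56 to 12.3). Without the filter the log2 fold change was 1.90 (SE 1.12, adjusted p = 0.232 by edgeR), which did not pass, while limma on unfiltered log2(TPM + 1) called Krt19 as higher (0.53, adjusted p = 0.0302). DESeq2 did not call it (log2 1.99, adjusted p = 0.219). Krt20, a chain of gut, urothelium and Merkel cells, had 4, 13 and 10 counts in the non-wounded and 11, 9 and 4 counts in the wounded libraries. The groups overlapped, with a higher value after wounding in mouse 1 and lower values in mice 2 and 3, and the log2 fold change was 0.08 (SE 0.60, adjusted p = 0.922 by edgeR). The ratio of pooled counts was 1.07 for Krt20 (exact 95% counting interval 0.594 to 1.93) and 2.12 for Krt18 (1.11 to 4.19). By counting error alone the interval of Krt18 leaves out a ratio of 1, but its libraries did not share a direction across the 3 mice.

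Krt7, a type II chain of ducts and glands, was the most abundant of the simple-epithelial members in non-wounded skin and was lower after wounding in each of the 3 mice. Its CPM were 3.45, 3.96 and 3.04 in the non-wounded and 1.41, 3.28 and 2.05 in the wounded libraries of mice 1, 2 and 3. The wounded library of mouse 2 lay above the non-wounded one of mouse 3, and the log2 fold change of -0.63 (SE 0.33, adjusted p = 0.139 by edgeR) did not pass. It passed without the wounded library of mouse 2 (log2 -1.02, adjusted p = 0.0341) and with library totals alone (log2 -0.95, adjusted p = 0.0292). In TPM the same libraries no longer overlapped, at 1.93, 2.86 and 1.23 against 0.788, 0.871 and 0.567, and limma on log2(TPM + 1) gave -0.75 (SE 0.25, adjusted p = 0.0410, with 48% of all genes called). Without its filter on low TPM the same fit did not call Krt7 (adjusted p = 0.0955). The units treat Krt7 differently. The TPM given per count of a gene differed between libraries by 1.35-fold for Krt8, Krt18, Krt20, Krt23, Krt75, Krt79 and Krt80 alike. It differed by 2.46-fold for Krt7 and 3.72-fold for Krt19, the latter on 1 to 9 counts per library. For these 2 genes the length by which counts were divided to give TPM therefore differed between libraries. The annotation lists 5 transcripts of Krt7, from 351 to 4094 bases, and 3 of Krt19, from 546 to 1576 bases. It also lists 4 of Krt79, from 465 to 2451 bases, and 5 of Krt80, from 345 to 3919 bases, which did not differ in this way. The source of the difference was not tested.

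**Figure D3:**
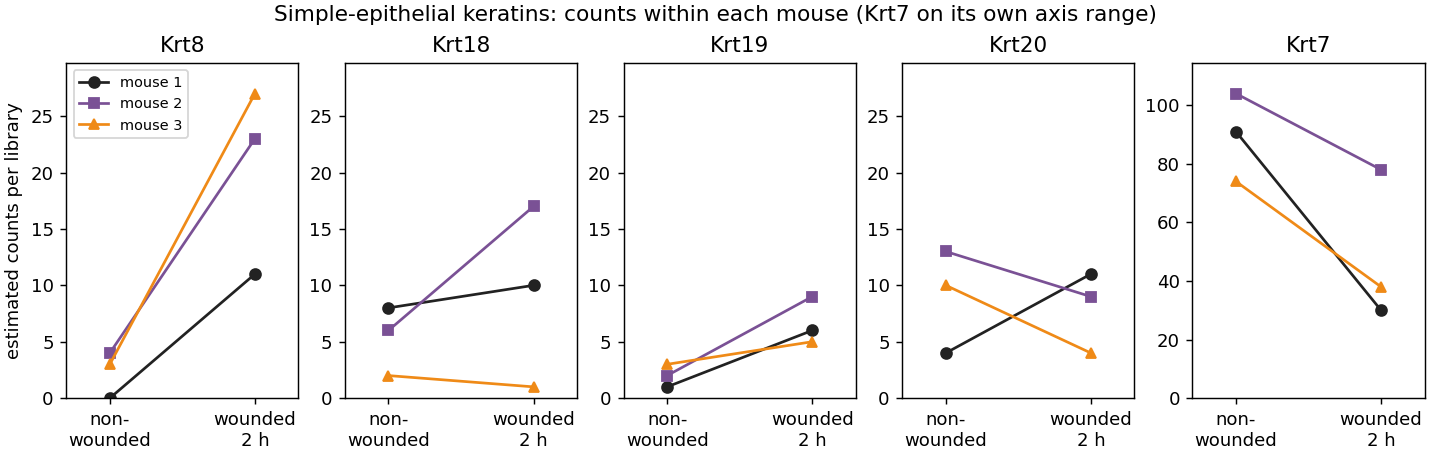
Estimated counts (rounded) of the 5 simple-epithelial keratins in non-wounded and wounded epidermis, with a line for each mouse. Krt8 and Krt19 are higher after wounding in all 3 mice, Krt7 (on its own axis range) is lower in all 3, and Krt18 and Krt20 differ in direction between mice.

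Changes of the follicle and differentiation keratins were small. Krt79, the marker of the upper follicle canal, had 867, 1102 and 731 CPM in the non-wounded and 1265, 1353 and 1043 CPM in the wounded libraries of mice 1, 2 and 3. It was higher after wounding in each mouse, by log2 0.55, 0.30 and 0.51, and the mice kept their order, with mouse 2 highest and mouse 3 lowest in both groups. The fitted log2 fold change was 0.44 (SE 0.15, adjusted p = 0.0359 by edgeR), and 0.45 (SE 0.08, adjusted p = 0.00114) with the mouse as a block. With library totals alone it was 0.11 (adjusted p = 0.551), and in TPM Krt79 was higher in 2 of 3 mice. The call was also lost when 1 library was left out, for mouse 1 either library, for mouse 2 the wounded and for mouse 3 the non-wounded one (adjusted p between 0.0819 and 0.141, and log2 0.30 to 0.42).

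Krt23 had 419, 420 and 467 CPM in the non-wounded and 587, 577 and 471 CPM in the wounded libraries of mice 1, 2 and 3. All wounded values were above all non-wounded ones, but mouse 3 accounted for almost none of the rise, with a within-mouse log2 change of 0.01 against 0.49 and 0.46 in the other mice. The fitted log2 fold change was 0.32 (SE 0.11, adjusted p = 0.0291 by edgeR). With library totals alone it was -0.000565 (adjusted p = 0.997), and the call was lost when any 1 library of mouse 1 or mouse 2 was left out (adjusted p between 0.0803 and 0.130).

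Krt80 had 887, 719 and 901 CPM in the non-wounded and 1062, 967 and 759 CPM in the wounded libraries. The groups overlapped, since the value was higher after wounding in mice 1 and 2 and lower in mouse 3. Its log2 fold change of 0.15 (SE 0.14, adjusted p = 0.389 by edgeR) did not pass, and it was -0.17 with library totals alone. Ratios within a library do not depend on the scaling. The TPM ratio of Krt79 to Krt80 was 0.811, 1.27 and 0.673 in the non-wounded and 0.989, 1.16 and 1.14 in the wounded libraries, so it was higher after wounding in mice 1 and 3 and lower in mouse 2. The ratio of Krt23 to Krt80 was 0.545, 0.674 and 0.598 in the non-wounded and 0.638, 0.688 and 0.716 in the wounded libraries, higher in 3 of 3 mice, with overlapping groups.

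**Figure D4:**
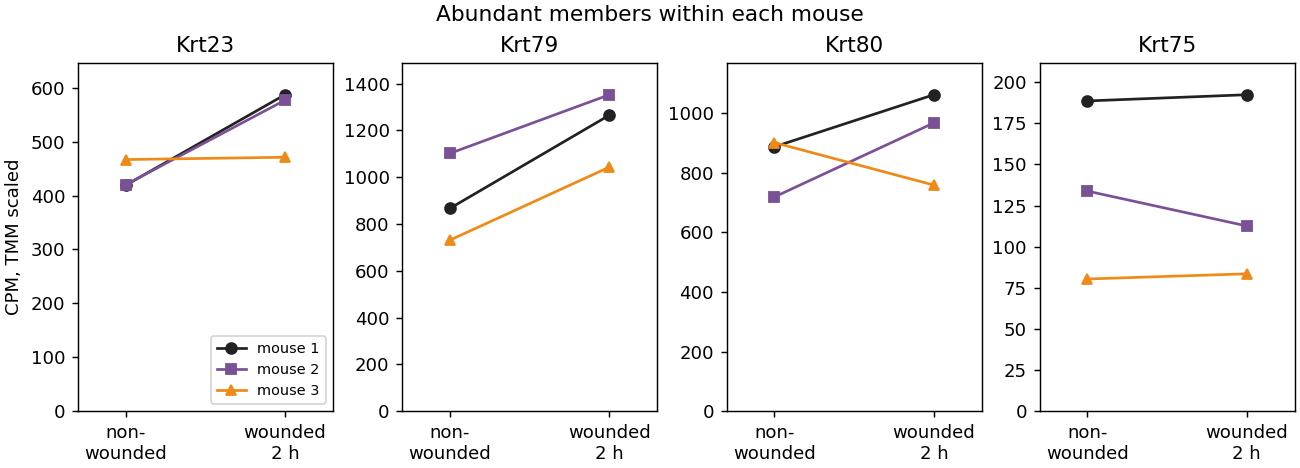
CPM (TMM scaled, each axis from 0) of Krt23, Krt79, Krt80 and Krt75 in non-wounded and wounded epidermis, with a line for each mouse. Krt79 climbs in all 3 mice, Krt23 climbs in mice 1 and 2 and is level in mouse 3, Krt80 moves in both directions, and the lines of Krt75 lie apart by mouse.

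Krt75, the companion layer keratin, lay apart by mouse, and its difference after wounding did not pass the test. Its CPM were 189 and 192 in mouse 1, 134 and 113 in mouse 2 and 80.4 and 83.5 in mouse 3, with the non-wounded value first. Both libraries of mouse 1 lay above both of mouse 2, which lay above both of mouse 3, and the highest and lowest mouse differed by log2 1.23 in non-wounded and 1.20 in wounded skin. Mice separated in this order for 139 of the 16079 genes tested (0.864%), and for 2 of 27 keratins tested. Separation in any other order was not counted, so the share of genes that lie apart by mouse may be larger. The log2 fold change after wounding was -0.05 (SE 0.32, adjusted p = 0.908 by edgeR), and with the mouse as a block it was -0.06 with a SE of 0.09 (adjusted p = 0.619). The separation by mouse was looked for after the values had been seen, and its source in the animals or in how the skin was taken was not tested.

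As part of the keratin pool, the 9 members took a modest share. They made up 5.12%, 6.22% and 5.81% of the summed TPM of all 54 keratin genes in the non-wounded libraries of mice 1, 2 and 3. In the wounded libraries they made up 6.92%, 7.30% and 6.04%. The share was higher after wounding in each mouse, while the groups overlapped. Their summed level was 1831, 1770 and 1735 TPM in the non-wounded and 1859, 1790 and 1480 TPM in the wounded libraries. The summed keratin TPM was 35734, 28443 and 29843 in the non-wounded and 26857, 24528 and 24518 in the wounded libraries. No test was run on these sums, because the members were chosen with results known.

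The rest of the keratin family gives the setting. Of the 45 other keratin genes, 20 were tested, 8 were called higher and 2 lower (5 and 7 with library totals alone), with a median log2 fold change of 0.14. Over all genes tested, 24% were called higher and 24.4% lower (13.5% and 41.4% with library totals alone). These shares are the background for this count and for each list count below. Of 18 interfollicular and stress keratins, 15 were tested, 6 rose and 1, Krt15, fell (with library totals alone 3 were higher and 6 lower, and with a mouse term 6 and 2). Krt10, the suprabasal type I chain and the most abundant keratin of that list, did not pass at 12895 ± 1697 and 11885 ± 1299 CPM (log2 -0.12, SE 0.13), though scaling by totals only called it as lower, at log2 -0.44 (edgeR's adjusted p = 0.0139). Krt6a, which activated keratinocytes make, stood at 327 ± 35.8 CPM in non-wounded and 1400 ± 68.4 CPM in wounded libraries (log2 2.10, SE 0.11). Krt17, a follicle keratin of type I, stood at 1632 ± 140 and 2227 ± 134 CPM (log2 0.45, and 0.12 with library totals alone). Most keratins of the inner root sheath and the hair shaft had too few counts to test. Of 8 inner root sheath keratins 1 could be tested, Krt27, which rose from 0.365 ± 0.156 to 2.24 ± 0.258 CPM (log2 2.60, SE 0.43, adjusted p = 0.000769 by edgeR). Of 15 hair shaft keratins 1 could be tested, Krt32, which fell from 9.89 ± 2.52 to 5.63 ± 0.307 CPM (log2 -0.81, SE 0.22, adjusted p = 0.0107 by edgeR). In TPM, Krt32 stood at 17.7, 11.2 and 19.2 in non-wounded skin, above every simple-epithelial member. Krt90, named after its values were seen, is another keratin that was near 0 in non-wounded skin and rose, from 0.221 ± 0.210 to 2.74 ± 1.14 CPM (log2 3.59, SE 0.72).

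Each tested member was also set beside the keratin whose profile over the 6 libraries was closest, by Euclidean distance between centred log2 CPM values among 26 candidates. The closest profile to Krt79 was that of Krt17 (distance 0.332). Krt23 lay closest to Krt78 (0.285) and Krt80 to Krt23 (0.326). Krt8 lay closest to Krt6a (1.37), Krt20 to Krt23 (1.05), Krt7 to Krt15 (1.14) and Krt75 to Krt5 (0.983), all at larger distances. Of 5 genes for proteins that tie keratin filaments to cell junctions, Dsp and Evpl rose and Dst fell (Dst alone passed with library totals alone). Dsp, which encodes desmoplakin of the desmosome, went from 5596 ± 573 to 7220 ± 542 CPM (log2 0.37, and 0.04 with library totals alone). Dst, whose epidermal form anchors keratin at hemidesmosomes, went from 2101 ± 711 to 591 ± 46.2 CPM (log2 -1.83, SE 0.20).

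Markers of the places where these keratins are known to be expressed moved in both directions, as did all genes tested (24% called higher and 24.4% lower). Of 6 upper follicle markers, the compartment of Krt79, 1 rose, Plet1, from 162 ± 30.7 to 1023 ± 29.3 CPM (log2 2.66, SE 0.14), and 1 fell, Lrig1, from 115 ± 5.10 to 64.9 ± 11.4 CPM. With the mouse as a block 2 rose and 1 fell. The others did not pass, including the most abundant, Cst6, at 911 ± 242 and 958 ± 261 CPM. The summed level of the list was 1185 to 1773 CPM in non-wounded and 2011 to 2532 CPM in wounded libraries, a rise that came mostly from Plet1. Of 8 bulge and outer root sheath markers 3 rose, with Sox9 going from 71.5 ± 10.3 to 274 ± 11.9 CPM, and 1, Lhx2, fell (with library totals alone 3 were higher and 3 lower, and with a mouse term 3 and 2). That list summed to 238 to 309 CPM in non-wounded and 530 to 600 CPM in wounded libraries, a rise that came mostly from Sox9. Of 7 sebaceous gland markers 3 rose, with Awat2, an enzyme of wax ester synthesis, going from 2.24 ± 1.09 to 10.3 ± 3.04 CPM (sums of 528 to 666 and 562 to 875 CPM, and 1 higher with library totals alone). The most abundant of them, the desaturase gene Scd1, did not pass at 502 ± 47.4 and 532 ± 129 CPM (log2 0.08, SE 0.15). Their part in the changes of Krt79 and Krt23 was not tested.

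Merkel cells carry Krt8, Krt18 and Krt20, which had few counts here, and several defining markers of these cells were near 0 as well. Atoh1, the factor that specifies them, had 1 count in the non-wounded and 2 in the wounded libraries, and Sox2 had 2 and 3. Pou4f3 had 3 and 4 counts, Insm1 14 and 11, and Isl1 21 and 1, with 19 of the 21 in the non-wounded library of mouse 1. The 6 Merkel markers summed to between 0.457 and 1.67 CPM in non-wounded and between 0.796 and 1.09 CPM in wounded libraries. Piezo2, the mechanically gated channel and the 1 marker of 6 with enough counts, did not pass (log2 0.82, SE 0.49, adjusted p = 0.195 by edgeR). Of 6 glandular epithelium markers, a possible source of Krt7, Krt8, Krt18 and Krt19, 5 were tested, Muc1 and Elf5 rose and Prlr fell (Muc1 and Prlr with library totals alone). Muc1, which encodes a mucin of glandular cells, went from 0.668 ± 0.185 to 3.11 ± 0.627 CPM (log2 2.21, SE 0.35), and Prlr, the prolactin receptor gene, from 68.4 ± 14.0 to 48.0 ± 7.28 CPM. The list summed to 65.2 to 95.5 CPM in non-wounded and 57.4 to 72.7 CPM in wounded libraries, and Csn3 did not reach the filter. The part of Merkel or glandular cells in the counts of these keratins was not tested.

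Among markers of other cell types, those of fibroblasts and red blood cells and most of those tested of skeletal muscle were higher in the wounded libraries. Myeloid markers moved in both directions. All 6 tested of 7 fibroblast markers rose, with a summed level of 2.70 to 7.44 CPM in non-wounded and 30.9 to 68.4 CPM in wounded libraries. Dcn, which encodes the matrix proteoglycan decorin, changed by log2 3.35 (SE 0.47) and the collagen gene Col1a2 by 2.90 (SE 0.41). All 5 red blood cell markers rose (18.9 to 26.1 against 97.3 to 165 CPM), among them the globin genes Hba-a2 by log2 2.22 (SE 0.22) and Hbb-bs by 6.07 (SE 0.31), as did 4 of 6 tested skeletal muscle markers (3.77 to 4.52 against 11.6 to 15.5 CPM). Of the muscle genes, the skeletal actin gene Acta1 changed by log2 3.74 (SE 0.51), while the myosin light chain gene Mylpf did not pass (log2 0.05, SE 0.28). Of 6 endothelial markers 1, Pecam1, could be tested and did not pass (1.52 to 2.20 against 2.19 to 3.29 CPM). Among 5 tested myeloid markers Lyz2, S100a8 and S100a9 rose and Csf1r and Itgam fell, and their sum was 75.8 to 88.8 CPM in non-wounded and 39.7 to 54.6 CPM in wounded libraries, with Ly6g at 0 counts in all 6. The part of these cells in the Krt8 and Krt19 counts was not tested.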

How the data were processed

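Salmon on mouse genome build mm10 made the deposited values and edgeR compared them, per the submitters' processing notes. The sources used here give no versions, annotation release or strand setting. What the authors deposited are estimated counts by gene symbol, of which 30.3% to 32.0% per library are not whole, and TPM of the same libraries. Here the estimated counts were rounded, filtered with filterByExpr (16079 of 47455 genes kept) and TMM scaled. Wounded and non-wounded libraries were compared by edgeR 4.0.16 (quasi-likelihood, R 4.3.3) without a mouse term, and p-values were adjusted by Benjamini-Hochberg over all genes tested. SE is the absolute log2 fold change over the square root of F, and ratios of counts carry exact binomial intervals for counting error only. Replicates are separate mice and differed by more than counting noise (chi-square per gene 13.7 to 37.1). The labels pair libraries by mouse, and deviations from group means correlated by 0.15, 0.04 and 0.17 within mice 1, 2 and 3. In a simulation of this comparison over its 16079 genes, the fit found 28%, 74%, 84% and 100% of sets of 50 genes altered 1.5-, 2-, 4- and 8-fold, beside 11 false calls. Only these sets were altered, as many genes up as down, whereas 48.4% of genes were called in the data. The simulation therefore does not test the scaling. Since 3 against 3 libraries allow no exact p under 0.1, genes were tested only in fits across all genes. Alternatives used limma 3.58.1 on log2(TPM + 1) and DESeq2 1.42.0. Gene positions come from GENCODE (GRCm38) and promoters from RefSeq.

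The members and gene lists were chosen with earlier results of these data known. The lists cover inner root sheath, hair shaft, interfollicular and stress keratins, keratin linkers, and markers of upper follicle, bulge, sebaceous gland, Merkel, glandular, fibroblast, endothelial, skeletal muscle, red blood and myeloid cells. By rule, the text names the members, the closest keratin profile of each, and in each list the most abundant gene and the one with the smallest p. Other genes were named after their values were seen.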

Additional observations from a re-analysis of the deposited data

How the results depend on the processing

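Krt8 was called as higher under all 14 alternatives that gave a value. The 2 filtered fits of TPM gave none, since Krt8 lies below 1 TPM. Krt18 and Krt19 have no value in the fit reported. In the 3 unfiltered or DESeq2 fits Krt18 was not called, and Krt19 was called in 1, limma on unfiltered log2(TPM + 1) (adjusted p = 0.0302). The number of members called was 3, and 1 with upper-quartile factors (Krt8), 1 with limma on log2(TPM + 1) or log2(TPM + 0.1) (Krt7 in both), 2 on unfiltered log2(TPM + 1) (Krt8 and Krt19), and 1 to 3 when 1 library was left out. Krt23 was not called with upper-quartile factors (log2 0.18) and its sign turned with library totals alone (-0.000565) and on log2(TPM + 1), filtered or not, or log2(TPM + 0.1) (-0.0268 in all 3). Krt79 was not called with upper-quartile factors (0.29), library totals alone (0.11) or limma on TPM (0.11 in all 3 fits). The sign of Krt80 turned with library totals alone (-0.17) and on TPM (-0.20 in all 3 fits), and that of Krt20 with upper-quartile factors (-0.0610), library totals alone (-0.24) and unfiltered log2(TPM + 1) (-0.0507). Krt7 was called with library totals alone (-0.95), log2(TPM + 1) (-0.75) and log2(TPM + 0.1) (-1.26), but not on unfiltered log2(TPM + 1) (-0.75, adjusted p = 0.0955). Those scalings lower log2 fold changes of all genes (median -0.15 for upper-quartile factors, -0.32 for library totals, -0.30 for log2(TPM + 1)), and the cause of that gap was not tested. Fits without 1 library at a time had no mouse term. In them, log2 fold changes ranged from 0.27 to 0.42 (Krt23), 0.30 to 0.60 (Krt79), -1.02 to -0.37 (Krt7), -0.28 to 0.40 (Krt20), -0.44 to 0.27 (Krt75), 0.05 to 0.28 (Krt80) and 2.76 to 3.90 (Krt8). The mean share of the members in wounded over non-wounded libraries was 1.18 of keratin TPM and 0.962 of all TPM. The mouse as a replicate block changed no member's call (3 called), with 8563 genes called in place of 7776. Higher genes made up 49.6% of all calls, 37.1% with upper-quartile factors, 24.6% with library totals alone and 25.8% with limma on log2(TPM + 1). Krt18, Krt19 and Krt20 rest on under 30 counts per group.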
